A study of Mus musculus with 2 samples.

Results

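Mitochondrial carriers are the proteins that move metabolites, nucleotides, phosphate and cofactors across the inner membrane of the mitochondrion. Most belong to the SLC25 family, whose members are built from repeats of a pair of membrane helices and usually exchange one solute for another. The mitochondrial pyruvate carrier, formed by Mpc1 and Mpc2, belongs to a different protein family but does the same kind of work, and Mtch1 and Mtch2 are relatives of the carriers in the outer membrane. In the small intestine carriers serve the energy supply of absorption, the handling of glutamine and the synthesis of citrulline and ornithine.

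The genes described here were taken by name: every row whose symbol starts with Slc25a and a digit, plus Ucp1, Ucp2, Ucp3, Mpc1, Mpc2, Mtch1 and Mtch2. That gave 54 genes, 47 named Slc25a and 7 others, of 24357 named genes in the tables. The series measured messenger RNA by sequencing in 1 group of 2 libraries, called replicate 1 and replicate 2, of ileum epithelial cells from wildtype C57BL/6 mice without any treatment in the labels. The cells were freed from the last part of the small intestine with EDTA and sorted for the epithelial surface protein EpCAM, leaving out cells with the leukocyte marker CD45 or the dead-cell dye 7AAD. The labels read here state neither age nor sex of the animals, nor whether animals were pooled. Values are FPKM, fragments scaled by transcript length and by the mapped depth of the library, so levels can be compared between genes, and ± marks the SD between both libraries (n = 2). With 1 group and 2 values per gene no test between conditions exists and no p is given.

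The libraries rest on about 16200000 and 26200000 fragments, as read from the lowest values. Epithelial markers were high in both, with Epcam at 696 and 644 FPKM and Krt8 at 2461 and 2036 FPKM, while the leukocyte gene Ptprc, which encodes CD45, had 0.866 and 0.436 FPKM. The 5 leukocyte markers summed to 10.1 and 9.74 FPKM and the 5 markers of stroma, vessels and smooth muscle to 0.580 and 0.248 FPKM. The libraries differed in sex-linked transcripts, with Xist at 7.91 and 0.00640 FPKM and the Y-linked Eif2s3y at 0 and 14.9 FPKM. Goblet cell markers were lower in replicate 2 in 4 of 4 cases and Paneth cell markers higher in 3 of 3. The ileal enterocyte gene Fabp6 had 1247 and 390 FPKM, enteroendocrine markers were lower in 3 of 4 cases, and markers of proliferating crypt cells were higher in 4 of 4.

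Carrier genes were widely expressed in these cells. Of the 54 genes, 39 (72.2%) reached 1 FPKM in both libraries, against 42.3% of all named genes, and 23 (42.6%) reached 10 FPKM in both, against 18.6% of all. The median carrier gene had a mean of 6.77 FPKM, the median of all named genes being 0.322 FPKM. Together the family made up 0.222% of the named genes and 0.482% of the summed FPKM in replicate 1 and 0.515% in replicate 2. Another 6 genes were listed at 0 in both libraries, 2 were above 0 in 1 library, 6 lay between 0 and 1 FPKM in both, and Slc25a40 reached 1 FPKM in replicate 2 alone.

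**Figure D1:**
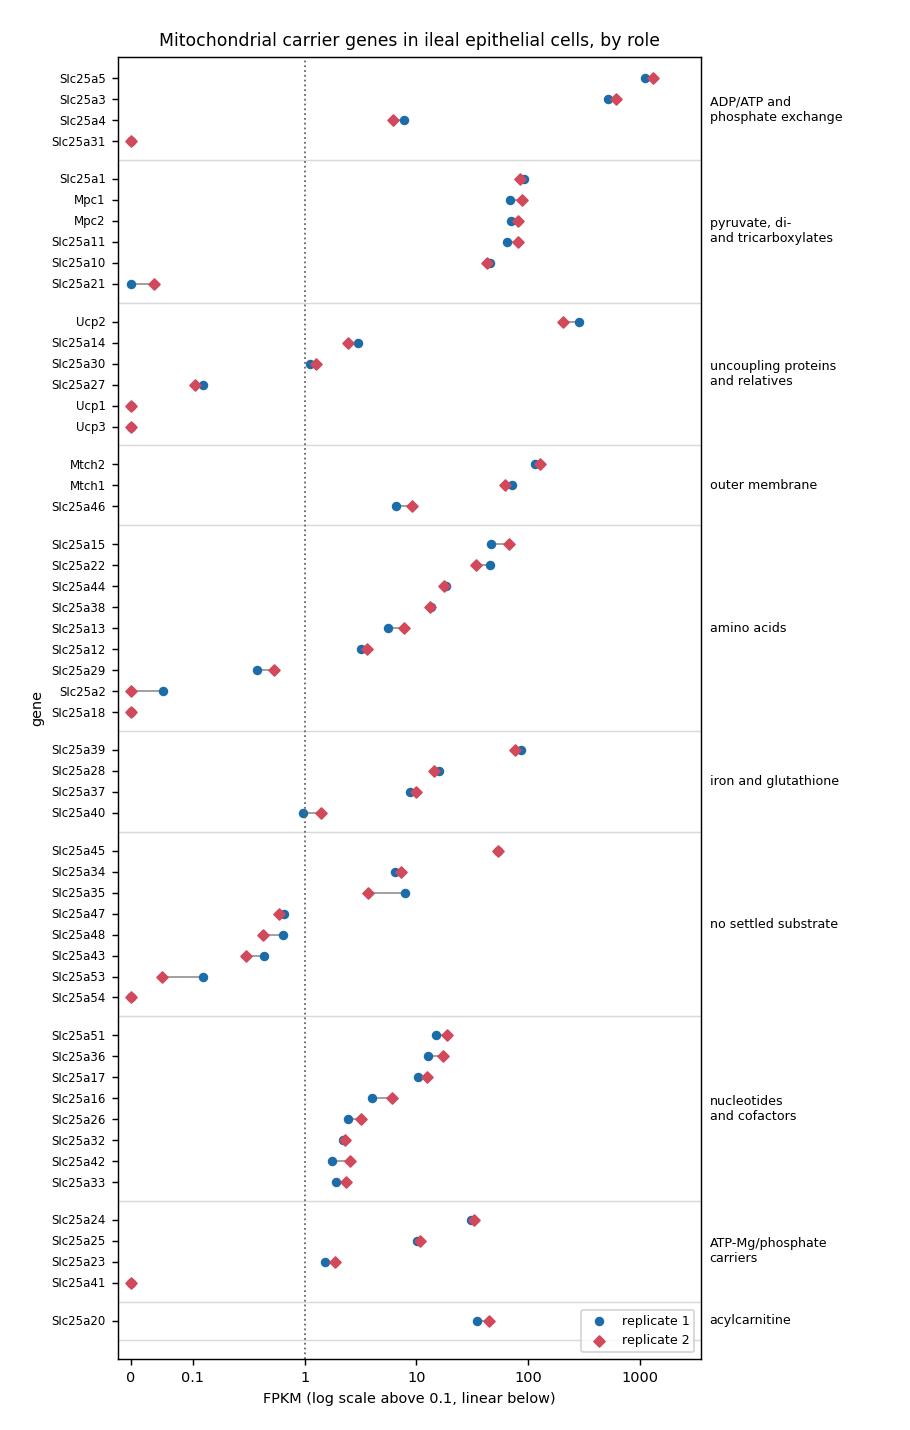
FPKM of 53 of the 54 carrier genes in replicate 1 (circles) and replicate 2 (diamonds), grouped by role, on an axis that is logarithmic above 0.1 and linear below. The dotted line marks 1 FPKM, which 38 of the genes shown reached in both libraries, and 6 genes sit at 0 in both.

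Pairs of neighbouring genes show how far levels within the family could differ. In 5 places 2 carrier genes lie next to each other with no other coding gene between them, and in 3 of them 1 gene was at 30 FPKM or more and the other under 1 FPKM. The sequences before the start site are shown for 2 of these pairs, so that the windows of a high and a low neighbour can be set side by side. On chromosome X, Slc25a5 (36795651 to 36798807, plus strand) had 1103 and 1316 FPKM, while Slc25a43, which ends 18448 bases before it on the same strand, had 0.436 and 0.299 FPKM. On chromosome 7, Ucp2 (100493337 to 100502020, plus strand) had 288 and 207 FPKM, and Ucp3, which ends 6904 bases before it, was listed at 0 in both libraries. These 2 pairs were chosen after their values were seen, as a high gene beside a low one, so the gap in level follows from the choice.

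The 250 bases before each RefSeq start (GRCm38.p6, plus strand) are given 5′ to 3′, at chrX:36795347-36795596 for Slc25a5, chrX:36743382-36743631 for Slc25a43, chr7:100493108-100493357 for Ucp2 and chr7:100472741-100472990 for Ucp3. Capitals mark a GC box, the letters GGGCGG or, on the other strand, CCGCCC.
Slc25a5: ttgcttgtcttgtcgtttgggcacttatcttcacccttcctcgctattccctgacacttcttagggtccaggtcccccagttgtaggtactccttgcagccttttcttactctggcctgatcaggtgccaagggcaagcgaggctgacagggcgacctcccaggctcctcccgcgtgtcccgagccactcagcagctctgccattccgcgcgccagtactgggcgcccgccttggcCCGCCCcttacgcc
Slc25a43: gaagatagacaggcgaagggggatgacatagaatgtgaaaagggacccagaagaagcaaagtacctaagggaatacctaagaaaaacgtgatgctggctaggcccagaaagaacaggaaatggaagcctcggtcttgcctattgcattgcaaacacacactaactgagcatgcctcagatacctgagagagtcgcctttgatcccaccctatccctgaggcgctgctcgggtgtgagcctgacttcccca
Ucp2: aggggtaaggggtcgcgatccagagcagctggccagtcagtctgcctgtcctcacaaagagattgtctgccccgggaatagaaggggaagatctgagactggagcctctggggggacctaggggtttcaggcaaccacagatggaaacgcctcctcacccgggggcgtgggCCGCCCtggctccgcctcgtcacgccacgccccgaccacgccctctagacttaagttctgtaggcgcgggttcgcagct
Ucp3: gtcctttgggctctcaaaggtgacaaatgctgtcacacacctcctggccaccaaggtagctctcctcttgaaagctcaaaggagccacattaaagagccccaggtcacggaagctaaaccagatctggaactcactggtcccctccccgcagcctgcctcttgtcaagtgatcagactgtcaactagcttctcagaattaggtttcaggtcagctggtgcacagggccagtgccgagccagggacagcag

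The window of Slc25a5 held 1 GC box and 14 CpG dinucleotides, and that of Ucp2 held 1 and 16. The windows of Slc25a43 and Ucp3 held no GC box, with 6 and 3 CpG dinucleotides. On chromosome 3 a high and a low gene stood side by side too, in Slc25a24, a calcium-regulated ATP-Mg/phosphate carrier at 30.6 and 32.8 FPKM with 2 GC boxes, and Slc25a54, listed at 0 in both libraries with none, whose end lies 6461 bases before it. Windows were found for 43 of the 54 genes. A GC box stood in 25 of 31 carrier genes at 1 FPKM or more in both libraries (80.6%) and in 4 of 11 with a mean under 1 FPKM. It stood in 64.9% of all 7898 genes with a window at 1 FPKM or more in both, in 29.9% of the 9131 with a mean under 1 FPKM and in 35.4% of all 27025 genes with a window. The TATA box (TATAAA, or TTTATA on the other strand) was in 0 of 31 and 2 of 11 carrier genes, against 7.80% of all genes at 1 FPKM or more and 17.9% of those with a mean under 1 FPKM. The CCAAT box (CCAAT or ATTGG) was in 16 of 31 and 4 of 11 carrier genes, against 41.2% and 37.1% of all genes in the same classes. The core of the NRF1 motif (TGCGCA, which reads the same on both strands) was in 4 of 31 and 3 of 11, against 13.99% and 5.03%. With 3 matches among 11 low carrier genes, no direction can be read from these shares. A gene with several windows was counted if any of them held the motif. Such a match describes letters in the window and is not evidence of binding.

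In the other 2 neighbouring pairs both genes were under 2 FPKM. Slc25a41 was listed at 0 beside Slc25a23 with 1.53 and 1.86 FPKM, their spans on chromosome 17 being 2056 bases apart. The spans of Slc25a29, a carrier of basic amino acids, and Slc25a47 lie 162 bases apart on opposite strands of chromosome 12. Slc25a29 had 0.376 and 0.528 FPKM, and Slc25a47, known as a liver carrier, had 0.651 and 0.591 FPKM. The window of Slc25a29 held 2 GC boxes and 25 CpG dinucleotides, more of each than those of Slc25a5 and Ucp2, so low genes with GC boxes were found too. The window of Slc25a47 held no GC box, but it does not lie in the 162 bases between the spans. It begins at base 108850879, inside the Slc25a47 span of 108836046 to 108856815, because the RefSeq start differs from the start of that span.

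Carriers of ADP, ATP and phosphate stood at the top. Slc25a5, or ANT2, the exchanger that brings ADP in and ATP out, had 1103 and 1316 FPKM, or 1210 ± 150 FPKM, at percentile 99.8 of all named genes. Slc25a3, which imports the phosphate used for ATP synthesis (chromosome 10, 91116574 to 91124059, minus strand), had 524 and 611 FPKM. Both were higher in replicate 2, by 0.25 and 0.22 on the log2(FPKM + 1) scale. Together they held 55.9% of the summed carrier FPKM in replicate 1 and 60.4% in replicate 2.

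Among the ADP/ATP carriers expression was concentrated in 1 gene. Slc25a4, or ANT1, the form known from heart and skeletal muscle (chromosome 8, 46206797 to 46211284), had 7.78 and 6.20 FPKM, so Slc25a5 exceeded it 142-fold in replicate 1 and 212-fold in replicate 2. Slc25a31, the form known from testis, was listed at 0 in both libraries, where 3 fragments would have given 0.0940 and 0.0581 FPKM. Of 4 striated muscle markers, Ckm and Myh6 were listed at 0 in both libraries, Tnnt2 had 0.129 and 0.186 FPKM and Acta1 had 24.0 and 23.7 FPKM.

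The longest exact run of bases shared by the longest coding transcripts of Slc25a5 and Slc25a4 is 20 bases long, starting at base 402 of the former and base 684 of the latter, and it is shown because the levels of these paralogs are compared here. The run was 21 bases for Slc25a5 with Slc25a31 and 14 bases for Slc25a4 with Slc25a31. Reads aligned with mismatches can match over a longer stretch.
Slc25a5 and Slc25a4: cagttctggcgctactttgc
Slc25a5 does share sequence with processed pseudogenes. Of its 50-base words, 46.6% occur in transcripts of 9 other annotated genes, led by the pseudogene Gm5560 with 29.1%. None of the 8 that share at least 1% has a row of its own in the tables, so the level of Slc25a5 carries an uncertainty that depends on how reads with several matches were treated.

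By summed FPKM, the pyruvate carrier and the carriers of citrate and other acids came after these, with 11.8% of the family in each library. The subunits of the pyruvate carrier had nearly equal levels: Mpc1 had 68.4 and 87.5 FPKM and Mpc2 had 70.7 and 81.1 FPKM, so their order turned between the libraries. The difference of their means was 0.03 on the log2(FPKM + 1) scale, against a limit of 0.59. This limit, set anew for each pair of genes, is the value that 95% of the 200 genes closest in level stayed under when replicate 1 was compared with replicate 2. Of the 50-base words of Mpc1, 29.6% occur in other genes, 23.2% in the pseudogene Mpc1-ps. Slc25a1, which exports citrate for lipid synthesis, had 92.3 and 85.0 FPKM, and Slc25a11, the oxoglutarate carrier of the malate-aspartate shuttle, had 65.3 and 81.2 FPKM. Slc25a10, the dicarboxylate carrier, had 45.6 and 42.8 FPKM and lay below Slc25a11 in both libraries by a difference of means of 0.71, above its limit of 0.62. Slc25a21, the oxodicarboxylate carrier, was listed at 0 and 0.0379 FPKM.

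Of Ucp1, Ucp2 and Ucp3, only Ucp2 reached 1 FPKM. It encodes a carrier that exports acids such as aspartate and malate from the matrix, and it had 288 and 207 FPKM. Ucp1, the heat-producing protein of brown fat, and Ucp3, the form of muscle, were listed at 0 in both libraries, where 3 fragments would have given 0.125 and 0.0775 FPKM for Ucp1 and 0.0809 and 0.04998 FPKM for Ucp3. Brown adipocyte markers were also low, with Adipoq listed at 0, Cidea at 0.306 and 0.153 FPKM and Prdm16 at 0.567 and 0.907 FPKM. Of the relatives, Slc25a14 had a mean of 2.72 ± 0.396 FPKM, Slc25a30 had 1.12 and 1.26 FPKM, and Slc25a27, known from brain, had 0.122 and 0.105 FPKM. Ucp2 made up 98.6% and 98.2% of the FPKM of these 6 genes.

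Of the amino acid carriers 6 of 9 reached 1 FPKM in both libraries. Slc25a15, which exchanges ornithine and citrulline (chromosome 8, 22375551 to 22398597, minus strand), was the highest with 46.5 and 67.0 FPKM, and its paralog Slc25a2 had 0.0519 and 0 FPKM. Slc25a22, a glutamate carrier, had 45.5 and 34.4 FPKM, while the second glutamate carrier Slc25a18, known from brain, was listed at 0 in both libraries, where 3 fragments would have given 0.106 and 0.0653 FPKM. The malate-aspartate shuttle uses the aspartate-glutamate carriers. Slc25a13, or citrin, the form of liver, had 5.59 and 7.82 FPKM, and Slc25a12, or aralar, the form of brain and muscle, had 3.18 and 3.64 FPKM. Citrin lay above aralar in both libraries, by 0.79 against a limit of 0.65. Slc25a44, a carrier of branched-chain amino acids, had 18.4 and 17.7 FPKM, and Slc25a38, which brings in glycine for heme synthesis, had 13.6 and 13.4 FPKM.

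Carriers for nucleotides and cofactors were expressed in 9 of 9 cases, at modest levels. Slc25a51, which imports NAD, led with 14.9 and 18.7 FPKM. Slc25a36, a pyrimidine nucleotide carrier, had 12.6 and 17.3 FPKM and exceeded the related Slc25a33, with 1.91 and 2.35 FPKM, by 2.34 on the log2 scale against a limit of 0.61. Of their 50-base words, 11.8% and 12.6% occur in 1 other annotated gene each. Slc25a17, a carrier of the peroxisomal membrane, had 10.4 and 12.5 FPKM, and Slc25a16, linked to coenzyme A, had 4.03 and 6.04 FPKM. Lower values were found for Slc25a26 for S-adenosylmethionine at 2.84 ± 0.545 FPKM, Slc25a32 for folate at 2.25 ± 0.0742 FPKM and Slc25a42 for coenzyme A at 2.16 ± 0.543 FPKM. This group was the only one with more than 4 genes in which every member reached 1 FPKM in both libraries. The 3 outer membrane genes and the 1 acylcarnitine carrier did so too.

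Slc25a39, a glutathione importer, led the carriers for iron and glutathione. It had 86.5 and 76.96 FPKM, against 0.961 and 1.39 FPKM for its paralog Slc25a40, a difference of 5.25 on the log2 scale. The iron importers were closer, with the broadly expressed mitoferrin 2 gene Slc25a28 at 15.9 and 14.4 FPKM and the erythroid form Slc25a37 at 8.78 and 9.99 FPKM, a difference of 0.64 against a limit of 0.61. Slc25a20, which passes acylcarnitines inward for fatty acid oxidation, had 34.7 and 44.3 FPKM. Among the ATP-Mg/phosphate carriers the order was Slc25a24, Slc25a25 with 10.2 and 10.7 FPKM and Slc25a23, and both steps exceeded their limits, at 1.52 against 0.55 and 2.09 against 0.55.

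The outer membrane proteins were high as well. Mtch2, which inserts proteins into the outer membrane, had 114.5 and 127 FPKM and stood above Mtch1 with 71.7 and 61.8 FPKM, by 0.85 against a limit of 0.64. Slc25a46, linked to mitochondrial shape, had 6.60 and 9.18 FPKM. Of the 8 genes placed here under no settled substrate, Slc25a45 led with 53.6 and 53.7 FPKM, followed by Slc25a34 with 6.43 and 7.27 FPKM and Slc25a35 with 7.92 and 3.66 FPKM. Slc25a48 had 0.644 and 0.428 FPKM and Slc25a53 had 0.123 and 0.0501 FPKM.

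**Figure D2:**
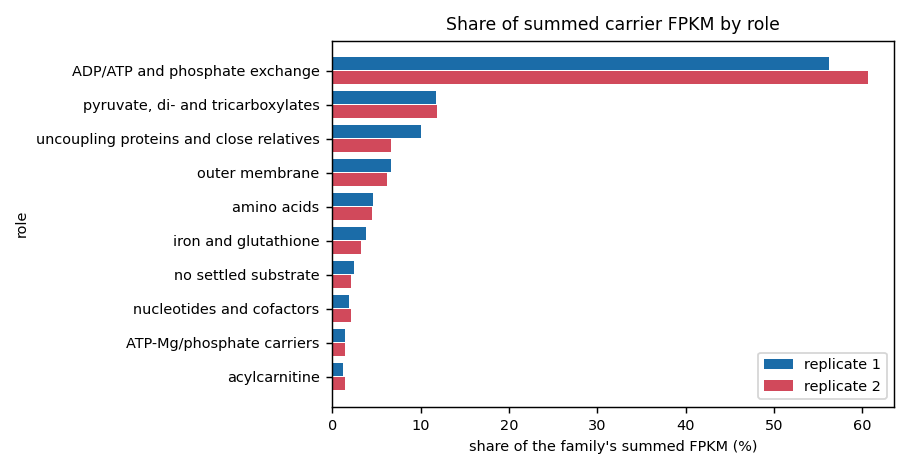
Share of the summed FPKM of the 54 carrier genes, in percent, held by each of 10 roles in replicate 1 and replicate 2. ADP/ATP and phosphate carriers hold 56.2% and 60.6%, and uncoupling proteins with their relatives 10.1% and 6.59%.

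Set against the spread between the libraries, the order of the genes was clearer at the top than below. When the 40 genes whose mean reached 1 FPKM were ordered, Slc25a5 exceeded Slc25a3 by 1.09 against a limit of 0.85, Slc25a3 exceeded Ucp2 by 1.21 against 0.68, and Ucp2 exceeded Mtch2 by 1.01 against 0.54. Further down only the step from Slc25a24 to Slc25a44 exceeded its limit, at 0.78 against 0.59, so 4 of 39 neighbouring pairs were apart. From Mtch2 at 121 ± 8.77 FPKM to Slc25a24 at 31.7 ± 1.52 FPKM no neighbours were told apart by this measure. The limits rest on differences between the libraries, so they do not cover errors in level that both libraries share. The step from Slc25a5 to Slc25a3 is open to such an error, because 46.6% of the sequence words of Slc25a5 occur in other genes. The 5 highest genes held 73.0% of the family's FPKM in replicate 1 and 73.5% in replicate 2, and the 10 highest held 85.4% and 85.7%.

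Between the libraries the carrier genes differed about as much as genes in general. The median size of the difference was 0.214 over the 40 carrier genes and 0.222 over all genes whose mean reached 1 FPKM. Over these 40 genes the median of replicate 2 minus replicate 1 was 0.15 on the log2(FPKM + 1) scale, beside 0.11 over all 10601 such genes, and 27 were higher and 13 lower in replicate 2. In percent, 67.5% of carrier genes and 64.0% of all genes were higher. After rescaling by the median ratio of all genes the split was 23 higher and 17 lower, with 49.9% of all genes higher, and after adjustment for GC content and length it was 32 and 8, with 68.8% of all genes higher. By more than 0.5, 1 carrier gene was higher, where 6.78% of all genes were, and 1 was lower, where 4.74% of all genes were. These shares are descriptions of 2 libraries, and in such bulk samples a change in cell makeup and a change in RNA per cell cannot be told apart.

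**Figure D3:**
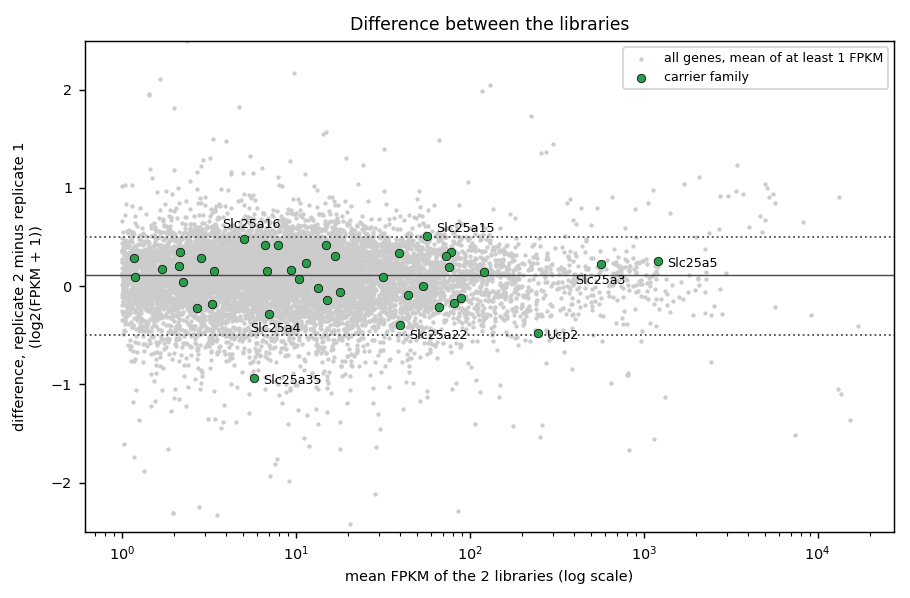
Difference between the libraries in log2(FPKM + 1) against the mean FPKM on a log axis, for every gene whose mean reached 1 FPKM (grey) and the 40 carrier genes among them (green). Dotted lines mark a difference of 0.5 either way, which Slc25a15 and Slc25a35 passed, the solid line marks the median of all genes, 0.11, and 24 other genes lie beyond the axis limit of 2.5.

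The gene past 0.5 in the upward direction was the ornithine carrier Slc25a15, by 0.52. It rests on about 2467 and 5744 fragments. Of the marker lists, the 3 Paneth cell markers summed to 2451 and 4399 FPKM and the 4 markers of proliferating crypt cells to 114.9 and 158 FPKM. The 4 absorptive enterocyte markers summed to 32156 and 30300 FPKM, with 2 higher and 2 lower in replicate 2. Goblet cell, ileal enterocyte and enteroendocrine markers summed lower in replicate 2. The part of any list in the difference of Slc25a15 was not tested. Next, among genes whose mean reached 5 FPKM, came Slc25a16 by 0.48, Slc25a36 and Slc25a46 by 0.42 each and citrin by 0.42. Once differences had been adjusted for GC content and length, Slc25a15 stood at 0.39, below 0.5. Rescaling by the median ratio of all genes also put it at 0.39. With that scaling 0 carrier genes were higher by more than 0.5, where 2.91% of all genes were. In the GC and length adjustment Slc25a42 alone passed 0.5 upward, at 0.58, where 5.15% of all genes did. Its values rest on about 87 and 203 fragments.

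The gene past 0.5 in the downward direction was Slc25a35, by -0.94, with about 448 and 335 fragments behind its values. Its span overlaps Rangrf on the opposite strand, and 25.8% of its 50-base words occur in other genes, 21.7% in Rangrf, which had 20.5 and 25.9 FPKM. Whether counting used the strand was not stated, so it is not known whether reads of these 2 genes were separated where they overlap. Opposite-strand overlaps with expressed genes also touch Slc25a18, listed at 0 in both libraries (Atp6v1e1, 82.5 and 87.1 FPKM), Slc25a11 (Rnf167, 57.7 and 60.5 FPKM), Slc25a23 (Crb3, 64.9 and 55.5 FPKM) and Slc25a26 (Lrig1, 8.53 and 10.7 FPKM).

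Among the other genes whose mean reached 5 FPKM, the lower values were led by Ucp2 with -0.48, followed by Slc25a22 with -0.39, ANT1 with -0.29 and Mtch1 with -0.21. Of the marker lists, 4 goblet cell markers summed to 21608 and 9885 FPKM, 2 ileal enterocyte markers to 1251 and 393 FPKM and 4 enteroendocrine markers to 1824 and 1652 FPKM. Paneth cell and proliferating crypt cell markers summed higher in replicate 2, and absorptive enterocyte markers went both ways. The part of any list in these differences was not tested.

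Carrier genes with a low GC content were mostly higher in replicate 2, and all genes showed the same trend. Over all genes with a known GC content, the median difference was 0.28 at a GC content of 44.5% or less. At 55.9% or more it was -0.15. Of the 20 carrier genes with a GC content below their median of 51.0%, 19 were higher and 1 lower, with a median of 0.27. Of the 20 above it 8 were higher and 12 lower, with a median of -0.07. Across these 40 genes the difference and the GC content had a Spearman's rho of -0.526, and across all 10227 genes with both measures one of -0.509. These are descriptions across genes of the same 2 libraries, which differ in depth. Whether depth, base composition in a library or cell makeup had a part in this trend was not tested. With the trend removed, Ucp2 stood at -0.28, Slc25a22 at -0.17 and Slc25a35 at -0.88, on a scale whose median over all genes is 0.11.

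**Figure D4:**
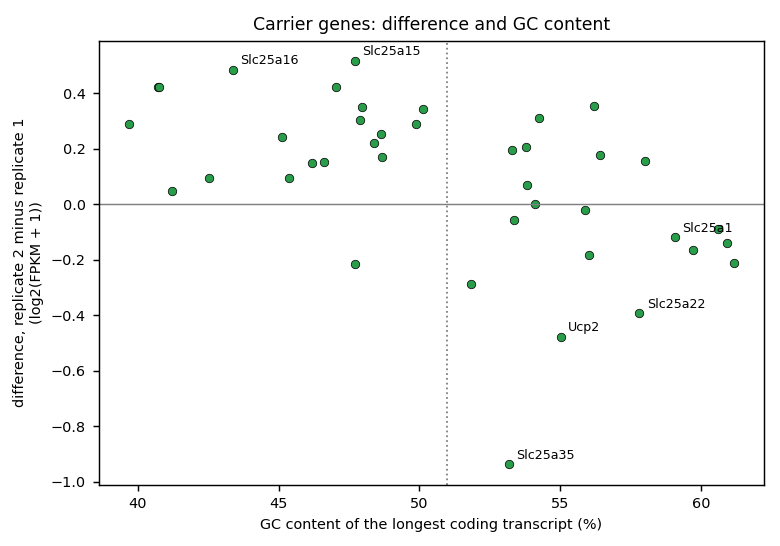
Difference between the libraries in log2(FPKM + 1) of the 40 carrier genes whose mean reached 1 FPKM against the GC content, in percent, of the longest coding transcript. The dotted line marks the median GC content of 51.0%, left of which 19 of 20 genes are higher in replicate 2. The trend is shared by all genes, with a Spearman's rho of -0.509, beside -0.526 for the carrier genes.

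The libraries carried different sex-linked transcripts, and 4 carrier genes lie on chromosome X. Of the 2 whose mean reached 1 FPKM, Slc25a5 differed by 0.25 and Slc25a14 by -0.22. Slc25a43, with about 7 fragments in each library, and Slc25a53, with about 6 and 4, are too thinly covered for a direction to be read. With 1 library of each kind, sex and library cannot be told apart.

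In 9 lists of genes that work with the carriers, chosen with earlier results of these data known, 51 of 51 genes reached 1 FPKM in both libraries, where 42.3% of all named genes did. Of the 51, 42 (82.4%) were higher in replicate 2 and 9 lower, where 64.0% of all genes were higher. By more than 0.5, 6 (11.8%) were higher and 0 lower, beside 6.78% and 4.74% of all genes. The F1 part of ATP synthase, which uses the ADP and phosphate that the carriers bring in, lay between Atp5c1 at 441 ± 87.1 FPKM and Atp5b at 1119 ± 59.3 FPKM, levels close to those of Slc25a3 and Slc25a5. Atp5b had 1077 and 1161 FPKM, which overlaps the values of Slc25a5. The VDAC channels of the outer membrane ranged from Vdac3 at 80.2 ± 8.28 FPKM to Vdac2 at 276 ± 26.9 FPKM.

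Import of carriers into the inner membrane runs through the TOM complex, the small TIM chaperones and the TIM22 complex. All 13 genes of this list reached 1 FPKM, with a median of 22.7 FPKM. The small TIM gene Timm8b was highest at 111 ± 6.43 FPKM and Agk, a subunit of the TIM22 complex, lowest at 2.56 ± 0.493 FPKM. Timm22, the channel of that complex, had 7.12 and 7.30 FPKM. Of the 13, 11 were higher in replicate 2 and 3 by more than 0.5, against the same shares of 64.0% and 6.78% over all genes, among them the receptor gene Tomm70a with 18.4 and 27.0 FPKM.

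Citrulline synthesis from glutamine, the pathway in which Slc25a15 takes part, was expressed in all 7 genes listed for it. Oat, which makes and uses ornithine, had 358 and 453 FPKM, Cps1, which makes carbamoyl phosphate, had 99.4 and 172 FPKM, and Otc, which joins the products to citrulline, had 41.4 and 52.5 FPKM. Nags, which makes the activator of Cps1, was lowest at 26.3 ± 0.289 FPKM. Of the 7 genes, 6 were higher in replicate 2 and Cps1 by more than 0.5, at 0.78, where 64.0% of all genes were higher and 6.78% by more than 0.5.

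For the malate-aspartate shuttle the enzymes Mdh2 at 739 FPKM in both libraries and Mdh1 with 380 and 372 FPKM stood far above Got1 with 27.1 and 37.5 FPKM and Got2 at 32.2 ± 3.45 FPKM, and also above citrin and aralar. The pyruvate dehydrogenase complex, which uses the pyruvate that Mpc1 and Mpc2 bring in, ranged from Pdhx at 7.77 ± 1.11 FPKM to Pdha1 at 56.0 ± 9.18 FPKM. Carnitine route enzymes ran from Cpt1b, the muscle form, at 1.68 ± 0.581 FPKM to Cpt2 at 40.7 ± 9.57 FPKM, close to Slc25a20. Of the genes that make or use citrate, Cs stood at 271 ± 19.9 FPKM, and Acaca, the first enzyme of fatty acid synthesis, at 2.51 ± 0.299 FPKM. Of the genes of mitochondrial iron use, Iscu, the scaffold of iron-sulfur cluster assembly, was highest at 42.3 ± 4.11 FPKM, above Slc25a28 and Slc25a37.

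**Figure D5:**
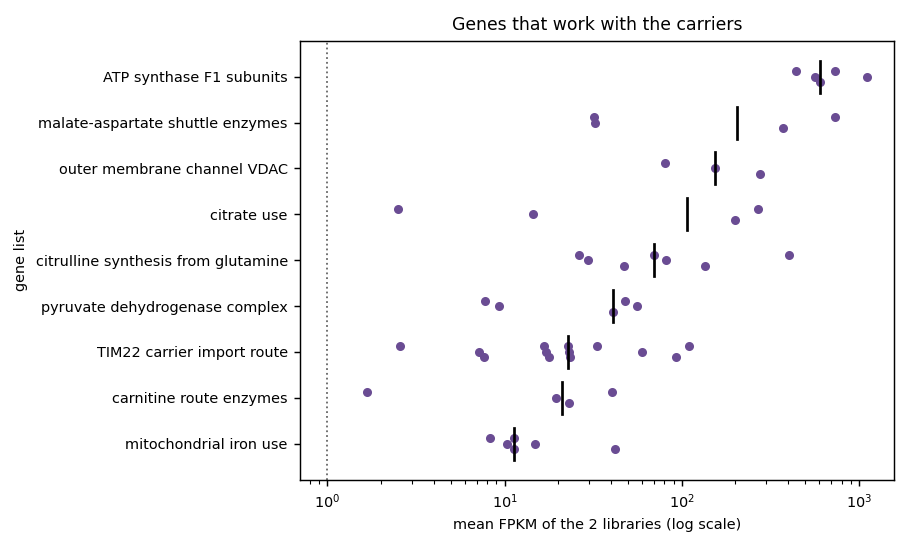
Mean FPKM over both libraries, on a log axis, of the 51 genes in 9 lists that work with the carriers, each point being 1 gene and each bar the median of its list. All points lie right of the dotted line at 1 FPKM, from Cpt1b at 1.68 FPKM to Atp5b at 1119 FPKM.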

How the data were processed

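Messenger RNA was measured in 2 libraries of 1 group. The authors deposited FPKM, 1 value per gene symbol and library. The tools and genome build named are TopHat2 2.0.14, Cufflinks 2.2.1 and mm10, per the submitters' processing notes. Annotation, use of strand and handling of multiply matching reads were not given in the sources used here. Of 24384 rows, 27 named by a date were left out. The labels do not say how many animals each sample holds. Sex-linked transcripts differ between the libraries, so they do not stem from the same single animal, and ± is the spread between these samples.

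Differences were taken as log2(FPKM + 1), which understates those of low genes, for genes whose mean reached 1 FPKM. Neighbours in level were called apart where their libraries did not overlap and their mean log2 values lay further apart than replicate 1 and replicate 2 did in 95% of the 200 genes closest in level. Depth was read from genes with 1 transcript, as the commonest low value of FPKM times the transcript length less 160 bases. Fragment numbers and floors of 3 fragments are approximate and cover counting error only. Coordinates, transcript length, GC content and 50-base words came from GENCODE M21, built on the same assembly, where 54 of 54 genes matched, and promoter windows from RefSeq (GRCm38.p6). To adjust for GC content and length, the median difference of each of 10 by 3 bins was subtracted, over 96.5% of the 10601 genes, with the overall median added back.

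Members, roles and lists were chosen with earlier results of these data known. Every gene whose mean reached 1 FPKM is named, except 1 that is counted but not reported here, and the 12 highest, the highest of each role, compared paralogs and the 5 largest differences each way at a mean of at least 5 FPKM are given in full. The neighbouring pairs and genes under 1 FPKM were chosen after their values were seen. Replicates were numbered in accession order, which pairs nothing. Alternatives were another pseudocount, other minimum FPKM, rescaling by the median ratio, the GC and length adjustment, and 1 library left out. Scripts were tested on simulated data. Python 3.11.15, numpy 2.4.6, pandas 2.3.3, scipy 1.17.1 and matplotlib 3.10.9 were used.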

Additional observations from a re-analysis of the deposited data

How the results depend on the processing

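The number of carrier genes at the minimum in both libraries was 39, with 41 at a minimum of 0.5 FPKM, 35 at 2 FPKM, and 39 to 40 with 1 library left out. The share of the 5 highest genes, 73.2% as the mean of both libraries, lay between 73.0% and 73.6% with 1 library left out. The number of neighbouring pairs told apart was 4 under all 3 alternatives. The median difference between the libraries was 0.15, and 0.043 after replicate 2 was rescaled by the median ratio of all genes, 1.10, a shift of 0.13 on the log2 scale. Under that scaling 0 genes were higher and 3 lower by more than 0.5 (Slc25a35, Ucp2 and Slc25a22), beside 2.91% and 7.59% of all genes, because the scaling lowers every value of replicate 2. With a pseudocount of 0.1 in place of 1, 2 genes were higher (Slc25a15 and Slc25a16), beside 11.4% of all genes. Of 32 genes given in full, 3 changed sign under the scaling (Slc25a45, Slc25a24 and Slc25a25) and 0 under the pseudocount. The removal of the GC and length trend left 1 gene past 0.5 each way, beside 5.15% higher and 3.29% lower of all genes. Slc25a42 then took the place of Slc25a15. No paired analysis was possible because there is 1 group. A planned description of protein sequences was not run. Differences need both libraries and have no value with 1 left out. Depth limits the 14 genes under 1 FPKM, of which Slc25a53 rests on about 6 and 4 fragments.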

Other observations

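Other transporters of the inner membrane, chosen after the tables were seen, were also expressed. Smdt1, a small subunit of the mitochondrial calcium uniporter, had 405 and 372 FPKM, more than any carrier gene except Slc25a5 and Slc25a3. The pore gene Mcu had 60.2 and 59.4 FPKM, and its regulator Micu2 had 36.0 and 38.4 FPKM, while Micu3 had 0.239 and 0.159 FPKM. Letm1, linked to potassium and proton exchange, had 36.6 and 34.4 FPKM. Among the sideroflexins, Sfxn1, a serine transporter, had 33.6 and 45.7 FPKM, and Sfxn2 at 1.45 ± 0.130 FPKM and Sfxn3 at 1.65 ± 0.190 FPKM were low. Sfxn4 and Sfxn5 had means of 0.0885 and 0.263 FPKM.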
